A study of Mus musculus with 2 samples.

Results

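Fertilization is marked in the mouse egg by repeated rises of cytosolic calcium, and the genes described here encode the proteins that release, admit, remove and read that calcium. Of the 10 genes chosen by name, 9 were found among the 11262 genes of the deposited expression table, and Stim1 was not analysed here. The genes were compared between the second polar body (PB2), the small cell extruded when the egg completes its second meiotic division, and the zygote from which it was detached. Each kind of sample had 1 RNA-seq library, and both came from untreated C57BL/6 mouse embryos of the late 1-cell stage. According to the paper, many PB2s and zygotes were collected for the libraries, so they are not a single matched pair. Its females had been superovulated with hormones before mating. The embryos were taken from the oviduct and cultured, and PB2 was then detached mechanically under trypsin once the zona pellucida had been dissolved in acid. The mRNA was amplified as full-length cDNA before sequencing, which can change the proportions of transcripts. With 1 library per group there was no replicate error and no test, so that every difference below describes these 2 libraries. The reads behind a value are unknown, since TPM, the abundance per transcript length on a fixed library total, keeps no record of depth. TPM also gives proportions, so the amount of RNA in PB2 and in the zygote cannot be compared with it.

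As background, sperm phospholipase C zeta produces inositol trisphosphate (IP3) in the egg, and IP3 opens receptor channels, encoded by the Itpr genes, in the endoplasmic reticulum. SERCA pumps such as that encoded by Atp2a2 return calcium to this store, plasma membrane pumps such as that encoded by Atp2b1 expel it, and channels such as Orai1 and Trpm7 admit it from outside, with Stim1 as the store sensor that opens Orai1. CaM kinase II, for which Camk2g and Camk2d encode the gamma and delta subunits, reads the calcium rises through calmodulin and starts the destruction of Emi2 (encoded by Fbxo43), the inhibitor that holds the egg in meiosis.

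The first 90 coding bases of 6 of the genes are shown as examples of base composition and of the likeness of paralogs. Whether either affected the values that follow was not tested. They are the coding starts of the longest protein-coding transcripts in GENCODE M21 on GRCm38, written 5′ to 3′ on the coding strand, and capitals mark G and C.
Orai1: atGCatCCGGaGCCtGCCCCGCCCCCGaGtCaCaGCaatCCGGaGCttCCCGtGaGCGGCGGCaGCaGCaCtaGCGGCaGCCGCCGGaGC
Camk2g: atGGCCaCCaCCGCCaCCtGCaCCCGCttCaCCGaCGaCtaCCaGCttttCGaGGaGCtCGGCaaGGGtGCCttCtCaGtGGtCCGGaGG
Camk2d: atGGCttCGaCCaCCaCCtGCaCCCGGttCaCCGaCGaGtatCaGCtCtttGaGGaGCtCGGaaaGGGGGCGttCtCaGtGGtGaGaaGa
Itpr2: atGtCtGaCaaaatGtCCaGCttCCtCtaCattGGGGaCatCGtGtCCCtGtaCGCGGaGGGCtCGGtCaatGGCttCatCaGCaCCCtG
Itpr1: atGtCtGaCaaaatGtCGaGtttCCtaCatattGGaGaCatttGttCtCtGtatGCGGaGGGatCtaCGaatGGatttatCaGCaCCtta
Trpm7: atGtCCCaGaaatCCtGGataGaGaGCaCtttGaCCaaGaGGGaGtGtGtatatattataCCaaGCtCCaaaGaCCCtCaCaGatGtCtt
The share of G and C in these stretches was 72.2% in Orai1, 64.4% in Camk2g, 57.8% in Camk2d, 54.4% in Itpr2, 43.3% in Trpm7 and 40% in Itpr1. A stretch does not stand for its whole transcript, which had 43.9% in Camk2d and 49.5% in Itpr1. The Orai1 stretch lies at chr5:123015258-123015347 on the plus strand and the Itpr2 stretch at chr6:146501789-146501878 on the minus strand, both in exon 1. The Itpr1 stretch lies at chr6:108236994-108237083 on the plus strand, in exon 3 of its transcript. The others cross introns. Camk2g starts in exon 1 and ends in exon 2, between 20792589 and 20793965 on the minus strand of chromosome 14. Camk2d does the same between 126597440 and 126599090 on the plus strand of chromosome 3, and Trpm7 runs from exon 1 to exon 3 between 126854675 and 126875976 on the minus strand of chromosome 2. Itpr1 and Itpr2 had the same base at 69 of the 90 positions, and Camk2g and Camk2d at 74 of 90. Over the whole coding sequence, the longest run shared by Itpr1 and Itpr2 was 28 bases, and that shared by Camk2g and Camk2d was 23. No stretch of 50 bases of the longest Itpr2, Orai1, Trpm7, Camk2g or Camk2d transcript occurred in a transcript of any other gene of that annotation.

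Both libraries held the transcripts of each of the 4 steps, but where the table held paralogs, 1 of them carried most of the family's TPM. Camk2g had 102 TPM in the zygote against 224.1 TPM in PB2. Itpr2 had 108.5 TPM in the zygote against 137.6 TPM in PB2. These were the most abundant of the 9 genes, with Itpr2 first in the zygote and Camk2g first in PB2. Atp2b1 had 80.6 TPM in the zygote against 97.2 TPM in PB2, and Atp2a2 had 76 TPM in the zygote against 105.5 TPM in PB2. The store pump and the plasma membrane pump therefore stood close together in both libraries. The entry channels were less abundant in the zygote, where Orai1 had 26.6 TPM and Trpm7 18.5 TPM, and they parted in PB2, where Orai1 had 69.4 TPM and Trpm7 10.3 TPM. Itpr1 was low in both, at 7.7 TPM in the zygote against 9.5 TPM in PB2. Itpr3 had 0.2 TPM in the zygote against 0.3 TPM in PB2. Camk2d had 0.1 TPM in each library, the smallest value above 0 that the table holds.

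**Figure D1:**
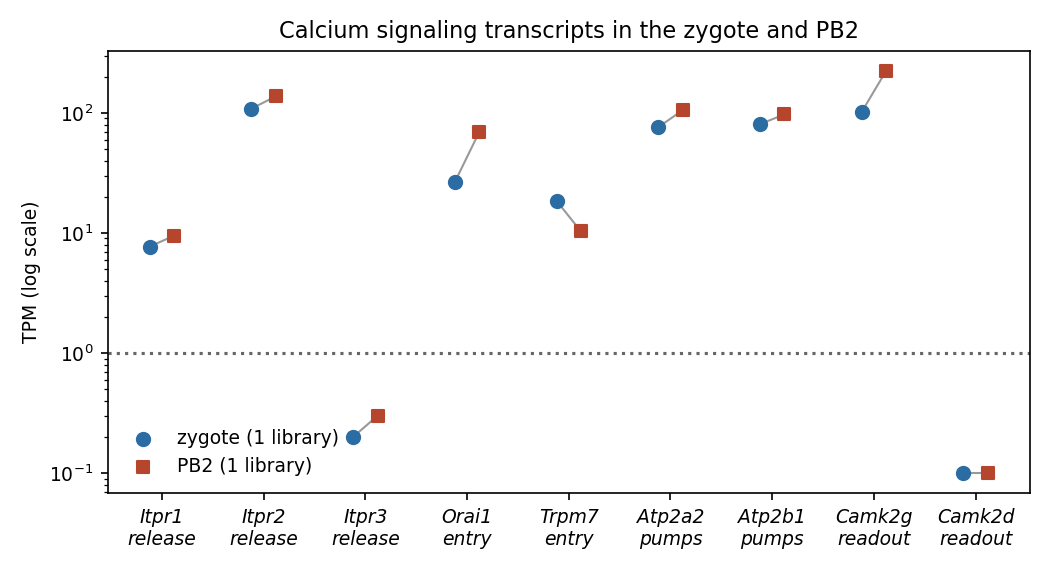
TPM of the 9 genes (log scale) in the 1 zygote library (circles) and the 1 PB2 library (squares), grouped by role, with a dotted line at 1 TPM. Itpr3 and Camk2d lie under 1 TPM in both libraries, Orai1 and Camk2g show the widest gap in favour of PB2, and Trpm7 is the gene that is lower in PB2.

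By rank among the 11262 genes, Camk2g was 1260 in the zygote and 623 in PB2, and Orai1 was 3334 and 1942. Trpm7 went the other way, with rank 4050 in the zygote and 5789 in PB2. Itpr2 held rank 1183 in the zygote and 1062 in PB2, and Itpr1 held 5897 and 5976, so that Itpr2 stood above 89.5% of the table's genes in the zygote and Itpr1 above 47.4%.

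The log2 ratio, defined as log2((PB2 TPM + 1)/(zygote TPM + 1)), was taken over the 10645 genes with at least 1 TPM in either library. Of the 9 genes, 7 passed this filter, and Itpr3 and Camk2d did not. Fold thresholds here and below apply to the log2 ratio, so its pseudocount shrinks the fold of genes at low TPM. At least 2-fold higher in PB2 were 2 of the 7, Orai1 and Camk2g, against a background of 18.9% of all genes compared. None of the 7 was at least 2-fold higher in the zygote, against a background of 8.09%. The median log2 ratio of the 7 was 0.34, and that of all genes compared was 0.21. Over all genes, 2009 passed 2-fold towards PB2 and 861 towards the zygote, and centring on the median made this 1383 and 1291. Counts as small as these do not set the genes apart from the rest of the table.

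The IP3 receptors, which release calcium from the store, were nearly level between the libraries. Itpr2 had a log2 ratio of 0.34 and Itpr1 of 0.27, both close to the median of the table. Of all genes compared, 55.4% had a lower log2 ratio than Itpr2 and 52.5% a lower one than Itpr1. Per transcript length, Itpr2 was 14.1 times as abundant as Itpr1 in the zygote and 14.5 times in PB2, and rounding of the deposited values allows 13.99 to 14.19 in the zygote and 14.40 to 14.57 in PB2. Itpr2 thus made up 93.2% of the summed TPM of the 3 receptor genes in the zygote and 93.4% in PB2, Itpr1 6.62% and 6.45%, and Itpr3 0.172% and 0.204%. These are shares of RNA, and the receptor proteins were not measured here. Taken within a library, the shares are not touched by scaling between the libraries. They do depend on the gene lengths the authors used, which the sources used here do not give. GENCODE lists 6 protein-coding transcripts of Itpr1, from 454 to 9870 nucleotides, and 4 of Itpr2, from 575 to 11679. Itpr1 (ENSMUSG00000030102) lies on the plus strand of chromosome 6 from 108213096 to 108551109, where exons of 2 genes on the opposite strand overlap it. Itpr2 (ENSMUSG00000030287) lies on the minus strand of the same chromosome from 146108299 to 146502223, with no overlapping exon of another gene. Whether counting used the strand is not given in the sources used here. Reads from the stretches where these exons overlap may therefore not be told apart from those of the antisense genes. Itpr3, Orai1 and Atp2a2 also have exons overlapped by a gene on the opposite strand.

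For Itpr3 and Camk2d the deposited decimals set the limit. The ratio of PB2 to zygote TPM of Itpr3 was 1.5, and rounding allows any value from 1 to 2.33. That of Camk2d was 1 and may lie anywhere from 0.333 to 3. No direction can be given for either.

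The entry channels differed in opposite directions. Orai1, the pore of the store-operated channel, had the largest log2 ratio of the 7, at 1.35. Its TPM was 2.61 times as high in PB2, with 2.60 to 2.62 allowed by rounding, and 90.1% of all genes compared had a lower log2 ratio. Trpm7, a magnesium and calcium channel fused to a kinase, had the lowest log2 ratio, at -0.79, and 12.2% of the genes compared lay below it. Its TPM in PB2 was 0.557 times that in the zygote, with 0.553 to 0.561 allowed by rounding. Orai1 TPM was 1.44 times Trpm7 TPM in the zygote and 6.74 times in PB2. Orai1 (ENSMUSG00000049686) lies on the plus strand of chromosome 5 from 123015074 to 123030456, where an exon of 1 antisense gene overlaps its own. Trpm7 (ENSMUSG00000027365) lies on the minus strand of chromosome 2 from 126791565 to 126876230.
The nearest relatives of both channels were scarce. Orai3 had 1.7 TPM in the zygote against 5 TPM in PB2, a log2 ratio of 1.15. Orai1 made up 94.0% of the summed TPM of Orai1 and Orai3 in the zygote and 93.3% in PB2, so both members of the pair stood higher in PB2 at a nearly constant proportion. Trpm6, the paralog of Trpm7, had 2.5 TPM in the zygote against 1 TPM in PB2, a log2 ratio of -0.81. Stim2, the relative of Stim1 and likewise a sensor of store calcium, had 27.3 TPM in the zygote against 31.5 TPM in PB2, a log2 ratio of 0.20, which is near the median of all genes.

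The pumps differed little between the libraries. Atp2a2, the SERCA pump of the endoplasmic reticulum, had a log2 ratio of 0.47, and Atp2b1, the plasma membrane pump, of 0.27. With the trend on transcript length removed, the sign of the Atp2b1 log2 ratio turned, to -0.045. Of all genes compared, 61.0% had a lower log2 ratio than Atp2a2 and 52.2% a lower one than Atp2b1. Atp2a2 TPM was 0.943 times Atp2b1 TPM in the zygote and 1.09 times in PB2. The other plasma membrane pumps of the table were low, with Atp2b3 at 2 TPM in the zygote against 2.3 TPM in PB2 and Atp2b4 at 1.6 and 3.6 TPM, and Atp2b1 made up 95.7% of the sum of the 3 genes in the zygote and 94.3% in PB2. Atp2a2 (ENSMUSG00000029467) lies on the minus strand of chromosome 5 from 122453513 to 122502225, and Atp2b1 (ENSMUSG00000019943) on the plus strand of chromosome 10 from 98914406 to 99026143. Of the longest Atp2a2 transcript, 5.43% of the 50-base stretches also occurred in transcripts of 2 other genes. The share was 2.13% for Atp2b1 with 1 other gene and 2.03% for Itpr1 with 2. Either strand was searched. The 2 genes found for Itpr1, and 1 of the 2 found for Atp2a2, are the opposite-strand genes whose exons overlap theirs. These shares are not error limits of the TPM values, and how far the shared stretches changed those values is not known.

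Camk2g, the reader of the calcium signal, had a log2 ratio of 1.13, and 85.01% of all genes compared had a lower one. Its TPM was 2.20 times as high in PB2, and rounding leaves that value unchanged to 3 digits. Centred on the median of all genes compared, its log2 ratio was 0.92, short of 2-fold, while that of Orai1 was 1.14. Among the 1065 most abundant genes compared, to which Camk2g belongs, 14.7% passed 2-fold towards PB2, and 88.0% had a lower log2 ratio than Camk2g. Camk2g made up 99.9% of the summed TPM of Camk2g and Camk2d in the zygote and 99.96% in PB2, and Camk2a and Camk2b were not analysed here. Camk2g TPM was 0.940 times Itpr2 TPM in the zygote and 1.63 times in PB2, a shift that does not depend on the scaling between libraries. Camk2g (ENSMUSG00000021820) lies on the minus strand of chromosome 14 from 20734875 to 20794088, with no overlapping exon of another gene.

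**Figure D2:**
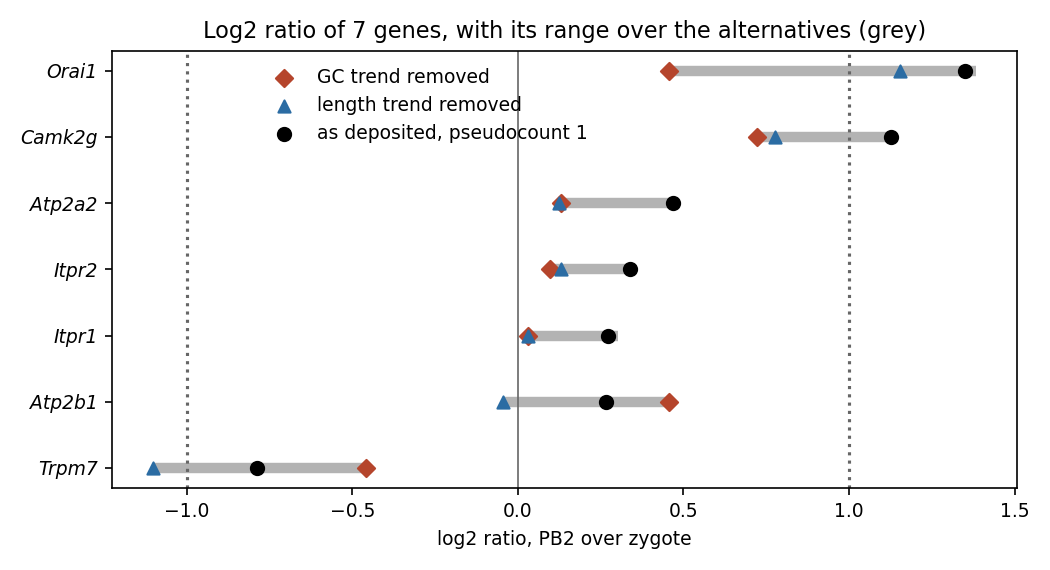
Log2 ratio of PB2 over zygote (horizontal axis) of the 7 genes compared, with black circles for the deposited TPM and a pseudocount of 1, grey bars for the range over 10 settings, diamonds for the GC trend removed and triangles for the length trend removed; dotted lines mark 2-fold. Orai1 and Camk2g lie beyond 2-fold as deposited, at 1.35 and 1.13, and inside it with the GC trend removed, at 0.46 and 0.72.

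The 7 genes had the same order by log2 ratio as by the GC content of their transcripts. Spearman's rho of GC content with the log2 ratio was 0.44 over 10606 genes with an annotated transcript, a description across genes that share the same 2 libraries. Trpm7 had the lowest GC content of the 7, at 40.1%, and the lowest log2 ratio, while Orai1 had the highest of both, with a GC content of 58.6%. Atp2b1 with 42.6%, Itpr1 with 49.5%, Itpr2 with 49.6%, Atp2a2 with 50.8% and Camk2g with 51.8% lay between them. The GC content of the coding sequence was 63.3% in Orai1 and 39.4% in Trpm7, that of the 5′ UTR 77.2% and 67.3%, and that of the 3′ UTR 48.8% and 37.7%. At the third codon positions 80.6% of the bases of Orai1 were G or C, against 33.9% in Trpm7.
The genes were divided by GC content into 10 groups of nearly equal size. Among the 1061 genes in the group of Orai1, the median log2 ratio was 0.93 and 47.3% were at least 2-fold higher in PB2, so that 69.4% lay below Orai1. In the group that holds Trpm7 the median was -0.36, and 28.7% of genes lay below Trpm7. In that of Camk2g the median was 0.40 and 22.7% passed 2-fold towards PB2, and 82.4% lay below Camk2g. Camk2g therefore kept nearly the same place among genes of like GC content as in the whole table, and Orai1 and Trpm7 moved towards the middle. Atp2b1 stood higher among genes of like GC content than in the whole table, above 74.5% of its own group.
With the average trend on GC content removed, the log2 ratio was 0.72 for Camk2g, 0.46 for Orai1, 0.46 for Atp2b1, 0.13 for Atp2a2, 0.096 for Itpr2, 0.032 for Itpr1 and -0.46 for Trpm7, and 0 of the 7 genes remained beyond 2-fold. The part of GC content in the differences between PB2 and the zygote was not tested.

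**Figure D3:**
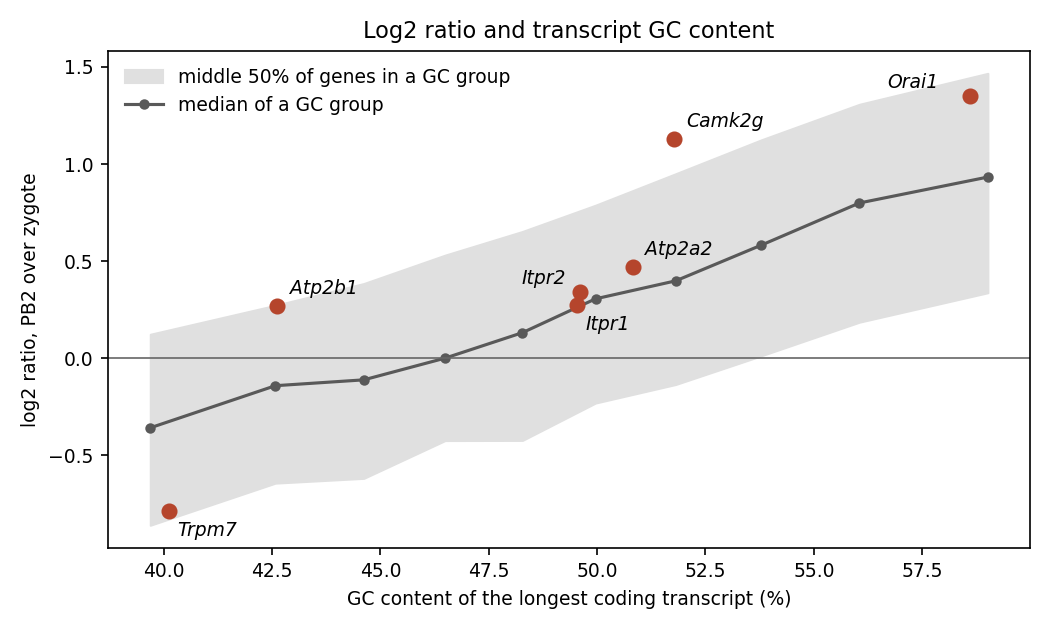
Log2 ratio of PB2 over zygote (vertical axis) against the GC content of the longest coding transcript in percent (horizontal axis) for the 7 genes (labelled points), with the median (line) and the middle 50% (band) of the genes in each of 10 groups by GC content. Camk2g, at 1.13, lies above the band, which reaches 0.95 in its group; the other 6 genes lie inside the band of their own group.

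Other genes of calcium handling were taken from a hand-written list of 101 genes in 7 roles, of which 66 were in the table and 61 were compared. At least 2-fold higher in PB2 were 12 of the 61, or 19.7%, and 4, or 6.56%, passed 2-fold towards the zygote, which is close to the backgrounds of 18.9% and 8.09%. Their median log2 ratio was 0.20.
The roles differed in their medians. Other genes of calcium entry had a median log2 ratio of 1.15 over 7 genes and a median GC content of 52.6%. Past 2-fold towards PB2 were 4 of the 7, or 57.1%, against the background of 18.9%. A count over so few genes does not set the role apart. Of the 4, Orai3, Cacna1h and Tmem110, the last named after its values were seen, had only 1.7, 1.8 and 0.9 TPM in the zygote. With the GC trend removed, a view by role that was added after the data were seen, the median of the 7 was 0.51 and 1 of them, Saraf, passed 2-fold. Saraf, which encodes an inhibitor of store-operated entry, stood at 39.6 TPM in the zygote against 114.8 TPM in PB2, a log2 ratio of 1.51. Cacna1h, a T-type calcium channel of the egg, had 1.8 TPM in the zygote against 6.5 TPM in PB2. With the values as deposited, Orai1, Orai3 and Saraf were therefore each at least 2-fold higher in PB2, while Trpm6 and Trpm7 were lower there.
Among 16 other sensors and readout genes, which do not include Camk2g, the median was 0.18. Calm2, a gene for calmodulin, the calcium sensor that activates CaM kinase II, had 491.5 TPM in the zygote against 219.9 TPM in PB2. Its log2 ratio of -1.16 was opposite in sign to that of Camk2g. Ppp3r1, the regulatory subunit of the calcium-dependent phosphatase calcineurin, had 76.5 TPM in the zygote against 222.6 TPM in PB2. Its log2 ratio was 1.53 and its GC content 41.4%, below the table's median of 49.1%. Other calcineurin subunit genes, named after their values were seen, were not higher in PB2. Their log2 ratios were -0.14 for Ppp3ca, 0 for Ppp3cb and -0.60 for Ppp3cc. Rcan1, a regulator of calcineurin, had 9.5 and 25.1 TPM. Fbxo43, which encodes Emi2 and was singled out after its values were seen, stood at 66.2 TPM in the zygote against 128.9 TPM in PB2, with a log2 ratio of 0.95.
Calcium-binding proteins of the endoplasmic reticulum had a median of 0.20 over 9 genes. Calr, the main calcium buffer of the store, had 163.9 TPM in the zygote against 329.7 TPM in PB2, a log2 ratio of 1.00, and Pdia3, a disulfide isomerase that works with it, had 166.8 and 76.1 TPM, a log2 ratio of -1.12. The 11 genes of mitochondrial calcium uptake had a median of -0.18, the lowest of the roles with the values as deposited, and the outer membrane channels split, with Vdac1 at 37.5 TPM in the zygote against 97.9 TPM in PB2, Vdac2 at 100 and 37.2 TPM and Vdac3 at 838.9 and 348.6 TPM. Letm1, an ion exchanger of the inner membrane, had 2.5 and 10.6 TPM.
The most abundant gene of each other role differed less. Plce1, a phospholipase C, had 28.4 TPM in the zygote against 21.5 TPM in PB2 in a group of 6 genes with a median of 0.33. Tmbim6, a calcium leak protein of the store, had 279.7 and 260.6 TPM in a group of 8 with a median of 0.012, and Atp2c1, the Golgi calcium pump, had 56.2 and 53.5 TPM in a group of 4 with a median of 0.48.

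**Figure D4:**
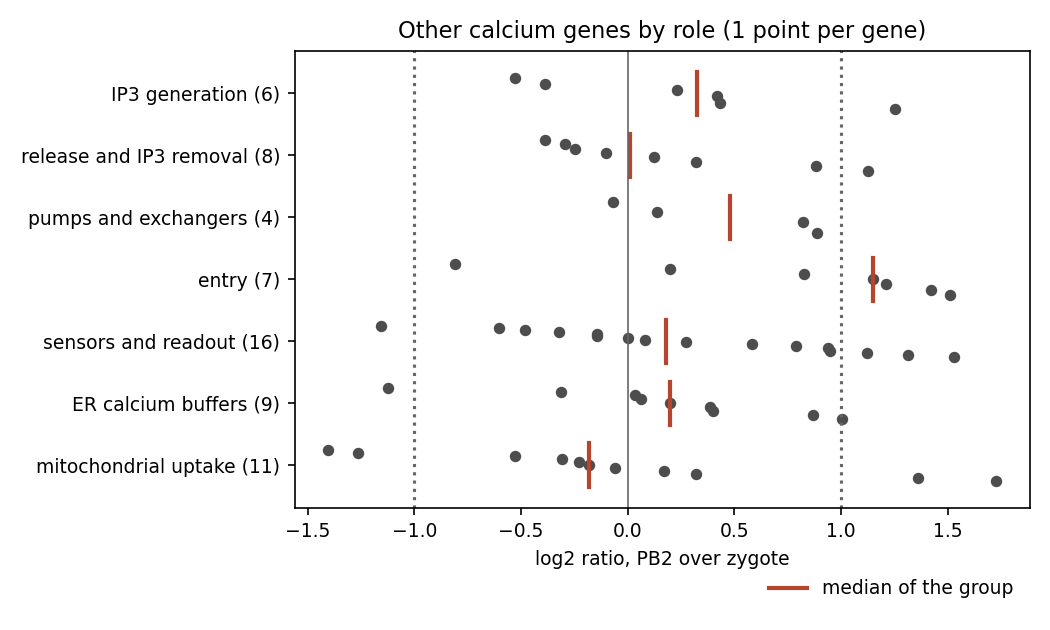
Log2 ratio of PB2 over zygote (horizontal axis) of 61 other calcium genes, 1 point per gene, in 7 roles with the number of genes in brackets; red bars are group medians and dotted lines mark 2-fold. With the values as deposited, entry has the highest median, at 1.15, and mitochondrial uptake the lowest, at -0.18; with the GC trend removed these medians were 0.51 and -0.36.

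As a check of oocyte origin, all 12 oocyte markers looked for were at 1 TPM or more in both libraries. PB2 and the zygote both come from the egg, so these markers cannot tell the labels of the libraries apart. They summed to 47358 TPM in the zygote against 37878 TPM in PB2. Without Dppa3, the most abundant of them in the zygote, the sums were 24796 and 29808 TPM, and 7 of the 12 were higher in PB2. Of 18 markers of cumulus and granulosa cells, which surround the egg, 7 were in the table, and 4 of these in the zygote and 6 in PB2 reached 1 TPM, and they summed to 82.9 TPM in the zygote against 84.1 TPM in PB2. Cyp19a1 made up most of that sum, at 72.2 and 70.9 TPM, and Cyp11a1 had 0.8 TPM in PB2, while the zygote listed it at 0. Without Cyp19a1 the sums were 10.7 TPM in the zygote against 13.2 TPM in PB2, and 5 of the 7 markers were higher in PB2. Their part in the differences of Orai1 and Camk2g was not tested.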

How the data were processed

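The analysis used the RNA-seq libraries of PB2 and of the zygote, 1 of each. The authors deposited TPM values to 1 decimal. The submitters' processing notes name CASAVA, HISAT2 2.0.4, HTSeq 0.6.1p1 and DESeq2 1.18.1 and the builds OryCun2.0, a rabbit assembly, and GRCm38. Gene identifiers are those of mouse in Ensembl. How TPM was computed, and with which gene lengths, is not given in the sources used here. The value column named for the polar body was matched to PB2. The other column, named for the 1-cell stage, was taken as the zygote because it was the one remaining, and 0 were left over. Both samples carry the stage label 1-cell. The values analysed sum to 927063 TPM (zygote) and 898326 TPM (PB2).

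The members and lists were chosen with earlier results of these data known. All members were named, and from the wider list the paralogs of a member, the gene of highest mean TPM in each role and the genes at least 2-fold apart that reach 5 TPM in either library. The values of 1 gene that this rule names are not reported here. The log2 ratio used a pseudocount of 1 and genes with at least 1 TPM in either library. Rounding limits were taken as 0.05 TPM on each value. Each gene's longest protein-coding transcript in GENCODE M21 gave its GC content and length, and loess trends had a span of 0.3. The functions were tested on simulated data. No test, interval or p-value was possible with 1 library per group. The planned comparison of paralog proteins was not run, and coding sequences were compared in its place. Python 3.11.15, numpy 2.4.6, pandas 2.3.3, statsmodels 0.14.6 and matplotlib 3.10.9 were used.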

Additional observations from a re-analysis of the deposited data

How the results depend on the processing

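No paired analysis was possible because each group has 1 library. The limits for an unchanged result were 1.5 times for a count, 0.5 for a log2 ratio or median and 5 percentage points for a family share. Of 155 results under the alternatives, 134 stayed within these limits with their sign, 18 moved and 3 changed sign. Part of the 134 could not have moved, so the tally does not measure how stable the results are. A change of filter leaves each gene's log2 ratio as it is. Centring shifts every log2 ratio by the same 0.21, which can change a sign but cannot pass the limit of 0.5. Rounding moved the family shares by far less than 5 percentage points.

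With the GC trend removed, the log2 ratio of Orai1 was 0.46 and 0 of the 7 members passed 2-fold towards PB2. In the wider list 7 of 61 did, and over all genes 963 of 10606. With the length trend removed, the log2 ratio of Atp2b1 was -0.045 and the median of the wider list was -0.094. In that setting 1 of the 7 members (Orai1) passed 2-fold towards PB2 and 1 (Trpm7) towards the zygote. The wider list had 6 and 4 of 61, and all genes had 1284 and 1242 of 10606. Centred on the median of all genes, the median of the wider list was -0.012. In that setting 1 of the 7 members, Orai1, passed 2-fold towards PB2, against 1383 of 10645 genes.

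At 1.5-fold, 2 members passed towards PB2 and 1 (Trpm7) towards the zygote, with 20 and 6 genes of the wider list and 3642 and 1924 of all genes. The 4-fold threshold on the log2 ratio left 0 members and 0 genes of the wider list in either direction, and 264 and 74 of the 10645 genes. Without the pseudocount, Letm1 for one had a TPM 4.24 times as high in PB2. The changes at 1.5-fold and 4-fold follow from the thresholds, and the cause of the other changes was not tested. With a pseudocount of 0.1, 2 members, 16 of 61 genes of the wider list and 2617 of 10645 genes passed 2-fold towards PB2. Towards the zygote 0, 5 and 1100 did. By role, added after the data were seen, removal of the GC trend turned the median of the IP3 generation genes to -0.29 and that of release and IP3 removal to -0.37, the lowest of the roles. Depth is unknown, and the rounding of Itpr3 and Camk2d allows no direction.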
